A study of Mus musculus with 8 samples.

Results

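Receptor genes for purines, amines, peptide hormones and lipid mediators were read in the mouse cochlea, 72 genes with 123 probe sets out of 18194 genes with 34958 probe sets that named a single gene on the Affymetrix Mouse Genome 430 2.0 array. The rule that chose them used gene symbols and no measured value, but it was set with earlier results of these data known. Most encode G protein-coupled receptors. The P2X receptors and the serotonin receptors Htr3a and Htr3b are ligand-gated ion channels, and Agtrap, whose symbol also met the rule, encodes a protein that binds the angiotensin receptor and is no receptor itself. The animals were 8 CBA/CaJ mice, an inbred strain that keeps good hearing and serves as a standard in hearing research. Every mouse received a lethal dose of urethane (300 mg/kg) and was perfused with saline, and the spiral ligament, organ of Corti and modiolus were collected together. The ears of an animal were pooled and hybridised to a single array. All 8 animals form 1 group of normal cochlea, with no mutation or further treatment named and no contrast between groups. Age and sex were not given in the sources used here.

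A G protein-coupled receptor binds its ligand outside the cell and passes the signal to a heterotrimeric G protein, which acts on cyclic nucleotides, calcium or the cytoskeleton, while a P2X receptor opens a cation channel when it binds ATP. In the cochlea, ATP in the endolymph opens P2X2 channels of the cells that line this space, and mutation of the human gene causes progressive hearing loss. Endothelin receptor B is needed by the neural crest cells that become the pigmented intermediate cells of the stria vascularis, and mice that lack the sphingosine 1-phosphate receptor S1pr2 are deaf.

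Every level below is a MAS5 signal in arbitrary units on a linear scale, read from the brightest probe set of a gene unless another is named, and given as mean ± SD (n = 8 mice) or by mouse. Mouse numbers carry no order. Each probe set binds with its own strength, so a higher signal of 1 gene than of another does not mean more of its RNA. Detection here means a signal above the 95th percentile of 148 background probe sets (olfactory and vomeronasal receptors and genes of organs unrelated to the ear) on all 8 arrays, and this threshold ranged from 45.3 (mouse 8) to 89.0 (mouse 5). Markers of the labelled tissue were detected for 6 of 6 fibrocyte, 8 of 8 supporting cell, 5 of 6 marginal cell, 7 of 9 strial intermediate cell, 5 of 10 hair cell, 10 of 13 neuronal and 6 of 8 Schwann cell genes. Defining markers below the threshold on every array were Tyrp1 and Pmel of pigment cells and Pou4f3 and Cdh23 of hair cells. Markers of vessels, bone and blood-derived cells included 11 of 13 endothelial, 8 of 10 mural cell, 17 of 17 macrophage, 7 of 7 osteoblast and 5 of 11 neutrophil genes that were detected. Of skeletal muscle 1 of 11, of erythroid cells 0 of 6, of lymphocytes 1 of 9 and of central nervous system glia 3 of 8 genes were detected. Summed signals of the neutrophil list ranged from 1959.7 (mouse 7) to 29899.5 (mouse 3) and those of the neuronal list from 12955.2 (mouse 6) to 32925.5 (mouse 1). Those of the erythroid list ranged from 93.0 (mouse 7) to 2570.8 (mouse 6) and those of the skeletal muscle list from 915.5 (mouse 6) to 14761.8 (mouse 5). Mouse 5 stood apart for muscle, with the myosin light chain gene Mylpf at 3034.5 against 62.3 to 262.7 in the others. Mouse 5 also had the highest threshold, and without it 22 of the receptor genes described next were detected instead of 20. The genes gained were Drd1 (75.9 in mouse 5) and P2ry12 (86.4), which were below the threshold in that mouse only.

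Of the 72 receptor genes 20 (27.8%) were detected, against 61.9% of all genes, a further 12 exceeded the threshold on some arrays, and 40 on none, against 25.4% of all genes. The lysophospholipid receptors held 6 detected genes among 10 and the prostanoid receptors 3 among 6. Of the P2X channels 3 of 7, of the adenosine and P2Y receptors 3 of 10, of the endothelin, angiotensin, vasopressin and oxytocin receptors 2 of 9, of the serotonin receptors 2 of 13 and of the adrenergic and dopamine receptors 1 of 6 were detected. No muscarinic receptor (0 of 3) and no somatostatin or opioid receptor (0 of 8) was. Above the threshold on at least 4 of the 8 arrays were 27 of the 72, against 68.5% of all genes. These counts describe the measured genes of each family and were not tested against each other. They are not shares of whole families. The 72 genes held no beta adrenergic receptor and no Ednra, only Adora3 of the adenosine receptors, and only Chrm1, Chrm3 and Chrm4 of the muscarinic receptors. A threshold at the 99th percentile left 12 detected genes, against 49.6% of all genes at that threshold, without Adra2c, Htr1b, Htr2b, P2ry1, P2ry2, P2ry6, Ptgir and S1pr1. In a mixed tissue fewer cells of a type and less RNA per cell cannot be told apart, and a signal below the threshold does not show that a receptor is missing from a rare cell.

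**Figure D1:**
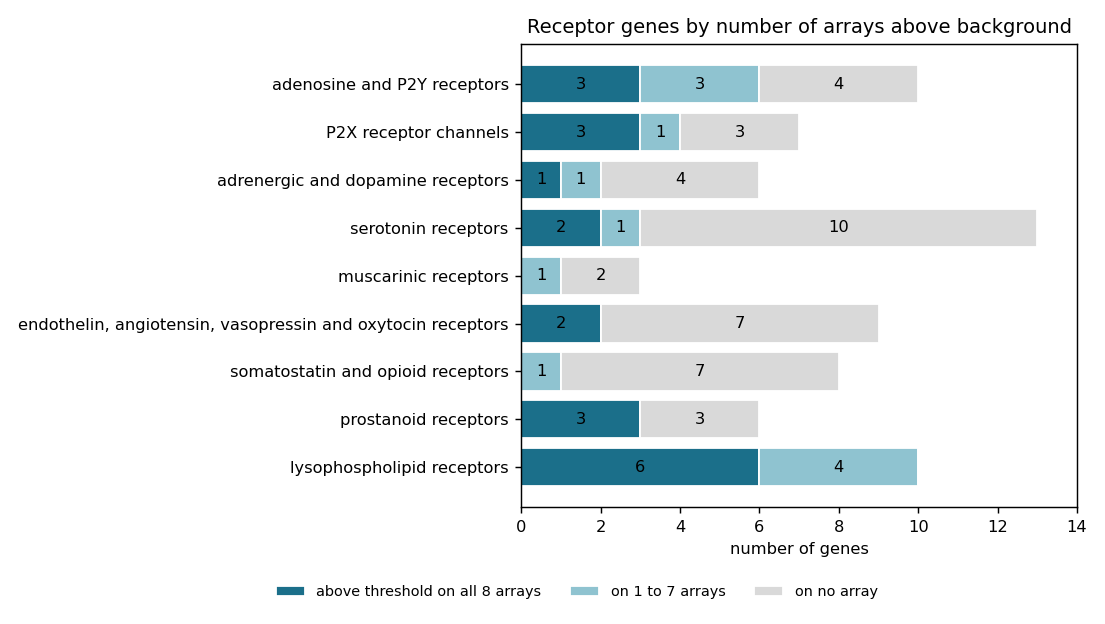
Number of genes of each receptor family (horizontal axis) above the background threshold on all 8 arrays, on some arrays or on none. Lysophospholipid receptors have 6 of 10 genes in the first class and 0 in the last, and serotonin receptors have 10 of 13 genes in the last.

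Promoters are printed for Ednrb, a gene detected in every mouse that marks the intermediate cell lineage, and for the detected members with the fewest and the most CpG dinucleotides among those with a single listed start. Each is the RefSeq window from 250 bases before to 50 after the start of transcription (GRCm38.p6), 5′ to 3′ on the strand of the gene, and capitals mark each CpG (the letters CG, found on both strands alike). Lpar6 lies at chr14:73237641-73237940 on the plus strand, Ednrb at chr14:103843652-103843951 on the minus strand and Ptger3 at chr3:157566626-157566925 on the plus strand.
Lpar6: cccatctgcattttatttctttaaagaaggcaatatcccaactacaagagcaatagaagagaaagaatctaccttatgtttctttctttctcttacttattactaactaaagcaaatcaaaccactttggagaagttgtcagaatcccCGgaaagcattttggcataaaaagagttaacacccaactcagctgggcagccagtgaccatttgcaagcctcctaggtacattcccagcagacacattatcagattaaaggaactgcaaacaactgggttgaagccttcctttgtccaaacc
Ednrb: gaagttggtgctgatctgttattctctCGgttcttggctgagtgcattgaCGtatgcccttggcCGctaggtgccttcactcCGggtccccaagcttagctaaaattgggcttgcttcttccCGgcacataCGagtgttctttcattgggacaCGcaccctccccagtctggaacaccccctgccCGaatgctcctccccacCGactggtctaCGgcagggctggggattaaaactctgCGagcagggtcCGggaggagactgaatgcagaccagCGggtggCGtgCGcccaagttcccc
Ptger3: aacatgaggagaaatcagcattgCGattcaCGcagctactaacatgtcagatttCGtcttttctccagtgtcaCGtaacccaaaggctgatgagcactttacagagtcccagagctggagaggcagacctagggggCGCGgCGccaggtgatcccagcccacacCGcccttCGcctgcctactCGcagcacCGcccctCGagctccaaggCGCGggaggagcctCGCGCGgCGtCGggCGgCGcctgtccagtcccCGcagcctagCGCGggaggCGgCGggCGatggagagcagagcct
The window of Lpar6 held 1 CpG, that of Ednrb 15 and that of Ptger3 27. RefSeq windows were listed for 17 of the 20 detected members, with a median of 15.0 CpG (range 1 to 29). Over the 9093 of 11258 detected genes with a window the median was 21.0, and 1.04% of them held at most 1. The windows are a description and were related to no other measure.

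ATP-gated P2X channels were represented by P2rx4, P2rx2 and P2rx7. P2rx4, a channel of many tissues, measured 1538.6 in the lowest mouse, 1752.6 at the median and 1984.7 in the highest (1769.9 ± 161.8). P2rx2, the channel of the cells that border the endolymph, measured 701.2 in the lowest mouse, 777.2 at the median and 986.6 in the highest (822.3 ± 116.5). Mice 1, 2 and 7 (986.6, 948.9 and 933.1) were above the other 5 (701.2 to 812.2) for P2rx2, and all of its values were far above the thresholds. P2rx7, a channel known from macrophages and glia, measured 331.5 in mouse 3, while the other mice lay between 479.2 and 617.5 (522.6 ± 91.6, median 541.3). A separate P2rx7 probe set went the other way, with its highest signal in mouse 3 (308.0) and all others between 180.8 and 264.1. The low reading of mouse 3 was thus seen by 1 probe set alone. P2rx6 exceeded the threshold in 6 mice by its brightest probe set (52.6 to 134.9, median 104.7) and in all 8 by its other one (60.3 to 101.2). P2rx1, P2rx3, a channel of sensory neurons, and P2rx5 were below it in every mouse, at 12.4 to 59.2.

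Of the G protein-coupled nucleotide receptors P2ry1, P2ry2 and P2ry6 were detected. P2ry2, a receptor for ATP and UTP, measured 165.2 in the lowest mouse, 200.1 at the median and 227.7 in the highest (199.2 ± 23.65), with the mice spread evenly. P2ry1, a receptor for ADP, measured 96.9 and 101.1 in mice 2 and 3, 149.2 at the median and 209.6 in mouse 6 (144.0 ± 36.31). Its SD of 0.37 on the log2 scale was larger than that of 92.9% of all detected genes. P2ry6, a receptor for UDP, ranged from 62.9 (mouse 8) to 113.1 (mouse 1), and in mouse 8 the threshold was 45.3. P2ry12 and P2ry13, ADP receptors of microglia and of blood-derived cells, exceeded the threshold in 7 and 6 mice, at 71.1 to 118.0 and 61.4 to 112.7. P2ry14, a receptor for UDP-sugars, did so in 3 mice, at 43.2 to 94.4. All of the 17 macrophage markers were detected, and their summed signal ranged from 11662.6 (mouse 4) to 15774.8 (mouse 5). P2ry12, P2ry13 and P2ry14 were all highest in mouse 6, whose macrophage score (0.16) was near that of mouse 5 (0.20). For P2ry13, mouse 1 (112.3) was level with mouse 6 (112.7), at a macrophage score of 0.04. Mouse 3, at a macrophage score of 0.15, measured 104.0 for P2ry12 and 68.5 for P2ry13. On this score, the mean log2 deviation of the markers, P2ry12 had a slope of 1.11 ± 0.45 (SE; limma unadjusted p = 0.0352, adjusted p = 0.56). P2ry13 had a slope of 0.76 ± 0.63 (SE; limma adjusted p = 0.862). Its smallest p was on the endothelial score (limma unadjusted p = 0.00816, adjusted p = 0.399). P2ry14 was below the signal filter of the fits. Mobp, a gene of the central nervous system glia list, measured 2331.4 in mouse 1 and 2262.1 in mouse 6, against 48.9 to 201.2 in the others. P2ry12 measured 98.5 in mouse 1, and P2ry14 was lowest there (43.2). No glia score was fitted, and the part of macrophages or glia in these receptor signals was not tested. The adenosine receptor Adora3 and the receptors P2ry4, P2ry10 and P2ry10b were below the threshold in every mouse, at 2.6 to 43.2.

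**Figure D2:**
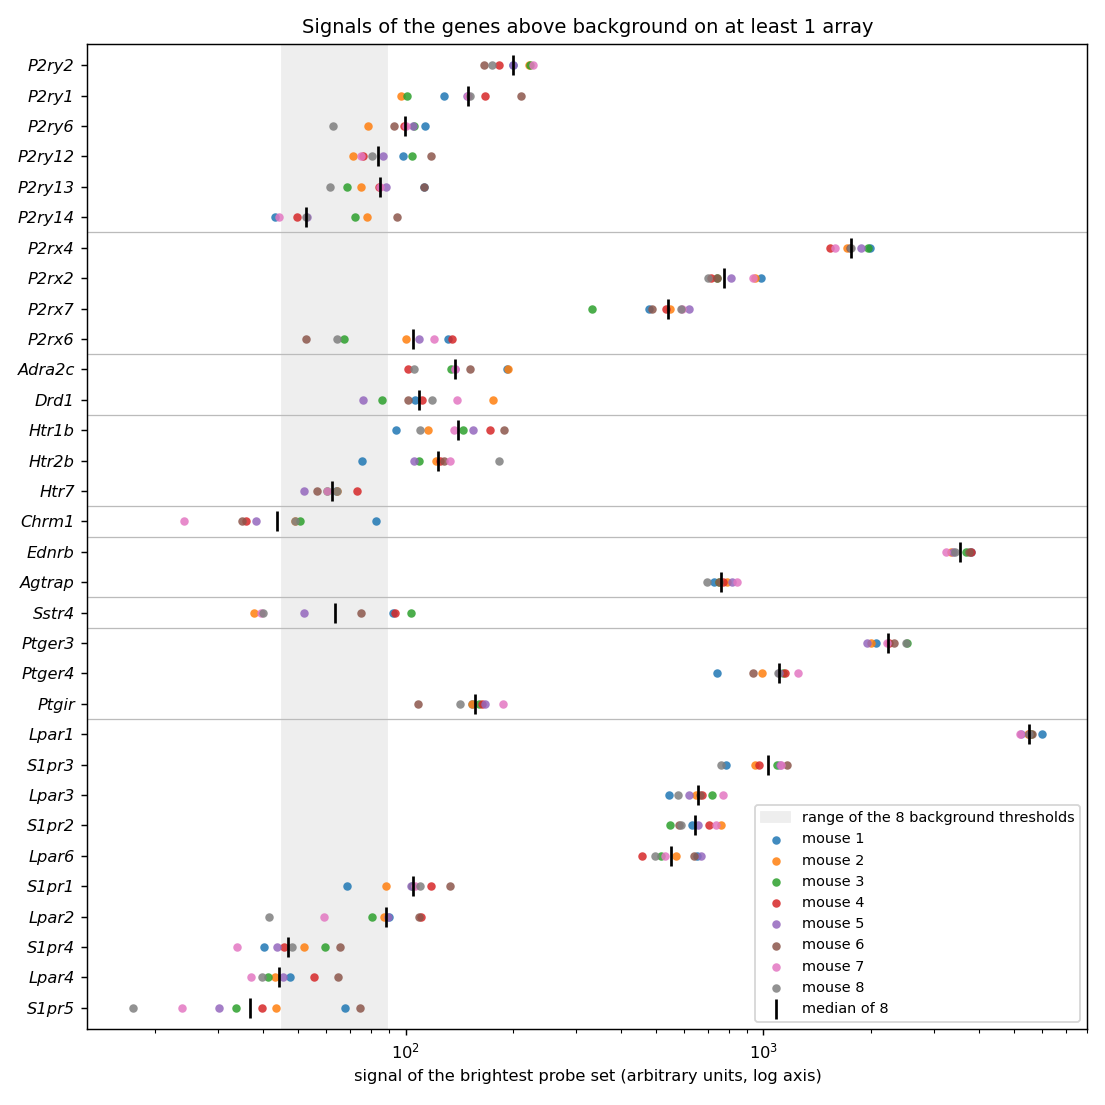
Signal of the brightest probe set (horizontal axis, arbitrary units on a log scale) in each of 8 mice for the 32 genes above background on at least 1 array, by family, with the median as a tick and the range of the 8 thresholds (45.3 to 89.0) shaded. The mice lie close together for Lpar1 and Ednrb, and P2rx7 has a single low mouse at 331.5.

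Among the peptide hormone receptors, endothelin receptor B and the angiotensin receptor partner were detected. Ednrb measured 3228.5 in the lowest mouse, 3551.2 at the median and 3794.9 in the highest (3550.2 ± 224.9). No mouse lay apart for Ednrb, and only 10.8% of all detected genes had a smaller SD than its 0.09 (log2). Another Ednrb probe set measured 150.3 to 214.8 and the remaining one 54.4 to 96.8, so the level read for the gene depended on the probe set. Agtrap measured 696.4 in the lowest mouse, 760.3 at the median and 844.0 in the highest (767.9 ± 47.25), with an SD of 0.09 (log2) as well. The angiotensin receptors Agtr1a, Agtr1b and Agtr2, which raise vessel tone or oppose it, the vasopressin receptors Avpr1a, Avpr1b and Avpr2, which act in vessels, pituitary and kidney, and the oxytocin receptor Oxtr were below the threshold in every mouse. Their highest value was 66.0, for Agtr1a in mouse 3, where the threshold was 77.9.

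Of the lysophospholipid receptors 6 of 10 (60.0%) were detected, a share near the 61.9% of all genes and the largest of these families. Lpar1, a lysophosphatidic acid receptor of myelinating and mesenchymal cells, measured 5217.1 in the lowest mouse, 5515.2 at the median and 6002.4 in the highest (5526.2 ± 242.7). Its SD of 0.06 (log2) was the smallest among the 20 detected members. Its second probe set measured 2122.0 to 2944.0 and the remaining one 74.4 to 160.1. S1pr3, a sphingosine 1-phosphate receptor of vessels and other tissues, measured 759.2 and 785.3 in mice 8 and 1, 1030.3 at the median and 1165.5 in mouse 6 (994.1 ± 155.5). Those 2 low mice lay below the other 6, which started at 949.6. S1pr2, the receptor needed for hearing, ranged from 549.5 (mouse 3) to 761.5 (mouse 2), with 650.8 ± 77.01. The lysophosphatidic acid receptors Lpar3 and Lpar6 ranged from 544.4 to 772.9 and from 457.7 to 670.2. S1pr1, the sphingosine 1-phosphate receptor of endothelial cells and lymphocytes, measured 68.6 in mouse 1, 105.2 at the median and 133.2 in mouse 6 (103.9 ± 19.23), the widest log2 spread of the 6 (SD 0.29).

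Lpar2 (7 mice, 41.5 to 110.5), Lpar4 (2 mice, 37.0 to 64.8), S1pr4 (2 mice, 33.9 to 65.7) and S1pr5 (2 mice) exceeded the threshold in some mice only. S1pr5, a receptor known from natural killer cells and oligodendrocytes, had the largest log2 SD of the 12 such genes (0.71). It measured 17.3 in mouse 8, below the threshold of 45.3 there, 36.65 at the median, 67.9 in mouse 1 and 74.6 in mouse 6, and these 2 high mice were the ones above the threshold. The lymphocyte list and the central nervous system glia list both had their lowest summed signal in mouse 7 (425.3 and 480.7) and their highest in mouse 6 (964.8 and 4398.4). Cd3e, Cd3g, Olig2, Opalin and Hapln2 were below the threshold in every mouse. The detected glia genes Mobp, Gfap and Slc1a2 were all highest in mice 1 and 6. Mobp measured 2331.4 and 2262.1 there, against 48.9 to 201.2 in the others. Cd2, the detected lymphocyte gene, measured 389.0 and 331.5 in those mice and 240.8 to 426.4 over all mice. The part of these cell types in the S1pr5 signal was not tested.

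Prostanoid receptors were detected for prostaglandin E2 and prostacyclin. Ptger3, an inhibitory prostaglandin E2 receptor, measured 1946.7 in the lowest mouse, 2230.1 at the median and 2517.9 in the highest (2225.1 ± 217.0), and its other probe set 593.9 to 775.7. Ptger4, a prostaglandin E2 receptor that raises cyclic AMP, measured 742.0 in mouse 1, below the range of 937.9 to 1246.8 of the others (1049.7 ± 156.5, median 1102.1). Its second probe set was near background, at 38.6 to 67.1. Ptgir, the prostacyclin receptor of vessels, measured 108.0 in mouse 6, below the range of 142.3 to 186.9 of the others (154.1 ± 22.7). Ptger1 and Ptger2, further prostaglandin E2 receptors, and Ptgfr, the receptor of prostaglandin F2-alpha, were below the threshold in every mouse, at 9.2 to 42.4, as were all 5 probe sets of Ptgfr.

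Of the 22 adrenergic, dopamine, serotonin and muscarinic receptors that were measured, Adra2c, Htr1b and Htr2b were detected. Adra2c, an inhibitory adrenergic receptor, measured 101.4 and 105.5 in mice 4 and 8, 137.5 at the median and 192.3 and 193.3 in mice 1 and 2 (144.1 ± 34.44). Of its 4 probe sets 1 was above the threshold in every mouse and 2 in none. The dopamine receptor Drd1 exceeded it in 7 mice (75.9 to 175.0), and Adra1b, Drd2, Drd3 and Drd4 in none (1.5 to 46.7). Of the serotonin receptors Htr1b, an inhibitory receptor of nerve endings, measured 93.9 in mouse 1, 140.4 at the median and 188.5 in mouse 6 (139.2 ± 32.18). The other Htr1b probe set was below the threshold in every mouse (2.0 to 47.6). Htr2b, a receptor of smooth muscle and fibroblasts that acts through calcium, measured 75.8 in mouse 1, 182.1 in mouse 8 and 105.4 to 132.8 in the other 6 (122.5 ± 30.09). Htr7 exceeded the threshold in 5 mice (51.9 to 73.1). Htr1a, Htr1d, Htr1f, Htr2c, Htr3a, Htr3b, Htr4, Htr5a, Htr5b and Htr6 did so in none, at 0.6 to 46.1. Of the muscarinic acetylcholine receptors Chrm1 exceeded it in 2 mice (24.1 to 82.9), and Chrm3 and Chrm4 in none (0.7 to 20.1).

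Inhibitory receptors for somatostatin and opioid peptides were not detected. Sstr4 exceeded the threshold in 4 mice (37.6 to 103.9) and was split, with mice 1, 3, 4 and 6 at 75.3 to 103.9 and the others at 37.6 to 52.1. The other Sstr4 probe set was below the threshold in every mouse (1.2 to 4.5), so the split was seen by 1 probe set alone. Sstr1, Sstr2, Sstr3, Sstr5, the delta opioid receptor Oprd1, the kappa receptor Oprk1 and the mu receptor Oprm1 exceeded the threshold in none, at 1.3 to 53.1. All 4 probe sets of Oprm1 were below it in every mouse.

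**Figure D3:**
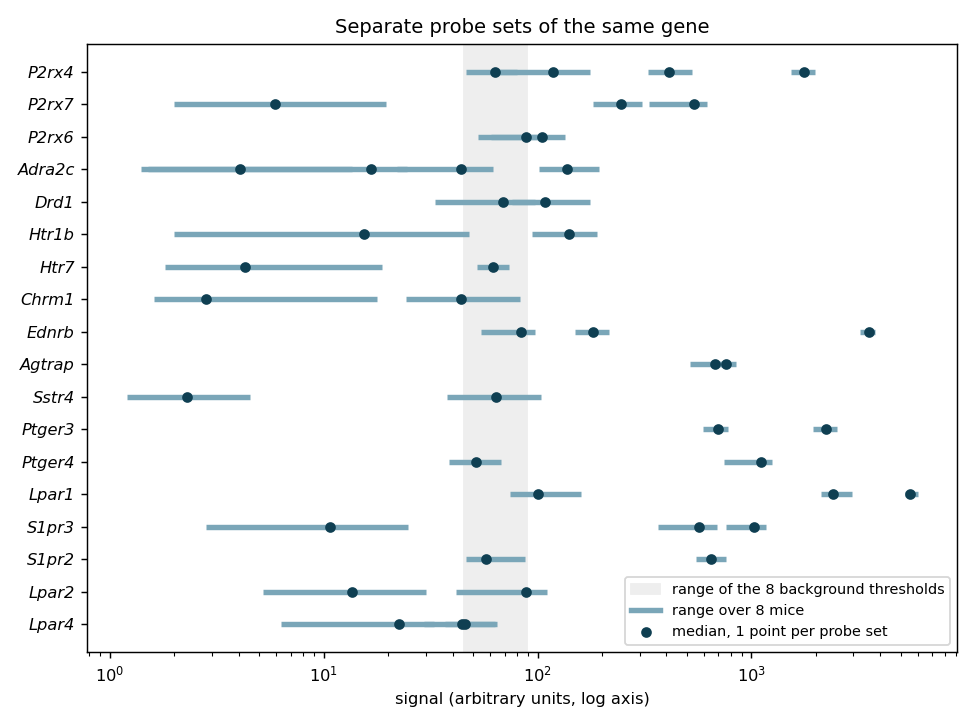
Median (point) and range over 8 mice (line) of the signal (horizontal axis, arbitrary units on a log scale) of each probe set, for genes with more than 1 probe set and a signal above background on at least 1 array. The 3 probe sets of Ednrb had means of 3550.2, 185.8 and 81.76, so the probe set chosen sets the level read for a gene.

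The median SD of the detected members over the mice was 0.22 on the log2 scale, against 0.18 over all detected genes, and 12 of the 20 were above the latter. Lpar1, Ednrb, Agtrap, P2rx4 and Ptger3 had log2 SDs from 0.06 to 0.14, and Htr1b, Adra2c, Htr2b and P2ry1, whose signals were nearer the threshold, from 0.34 to 0.37. P2ry6 and S1pr1, with lower mean signals still (94.59 and 103.9), had smaller SDs of 0.28 and 0.29. Ptgir and P2ry2, at means of 154.1 and 199.2, had 0.23 and 0.17. A relation of SD to level was not tested. Mouse 7 had the highest value of 5 of the 20 members, against 9.6% of all detected genes, mouse 6 that of 4, against 9.3%, and mouse 1 that of 4, against 34.2%. Mouse 1 had the lowest value of 5 members, against 24.2% of all detected genes, and mouse 8 that of 4, against 19.2%. The median deviation of the members from their means was -0.12 in mouse 8 and 0.12 in mouse 7 (log2), against -0.04 and 0.02 for all detected genes. A single mouse lay apart from the other 7 by the size of its gap for 1 of the 20 members, P2rx7, against 12.8% of all detected genes.

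**Figure D4:**
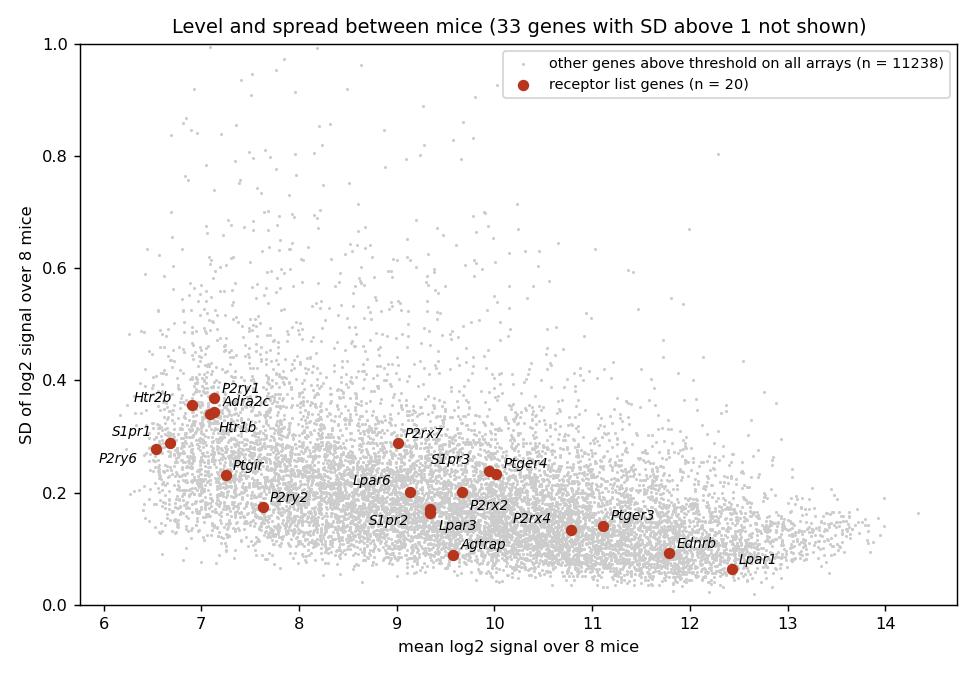
SD over 8 mice of the log2 signal (vertical axis) against the mean log2 signal (horizontal axis) for the 20 detected members, which are named, and the other detected genes with an SD up to 1 as grey points. Lpar1 (SD 0.06) and Ednrb (SD 0.09) lie low at the bright end and P2ry1 (SD 0.37) high at the dim end.

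Whether 2 probe sets of a receptor ranked the mice alike could be tested for 8 members, by an exact one-sided permutation test of their Pearson correlation over 40320 pairings of the mice, adjusted by Benjamini-Hochberg over 5076 genes. The test passed for 0 of the 8 members, against 6.44% of all genes tested, and at an unadjusted p under 0.05 for 1 (S1pr3), against 26.5%. With Spearman's rho in place of r it also passed for 0. S1pr3 had r = 0.68 (exact p = 0.0353, adjusted p = 0.155), rho = 0.50 (exact p = 0.108), and r = 0.48 without the 2 mice farthest from the median. Both S1pr3 probe sets tested were lowest in mouse 8, at 759.2 and 365.7, and without that mouse alone r was 0.33 (adjusted p = 0.485, exact permutation test). The other 7 correlations ranged from -0.47 for P2rx7 to 0.52 for P2rx4, which had an exact p of 0.0962 (adjusted 0.282). For these 8 genes the differences between mice given above are readings of 1 probe set. P2rx2, P2ry1 and Htr2b had 1 probe set each, so no second reading could be made. All p-values given for these arrays test an association across 8 mice, whose spread includes that of the assay. Both sides of each test were read on the same arrays, so effects shared within an array enter both.

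**Figure D5:**
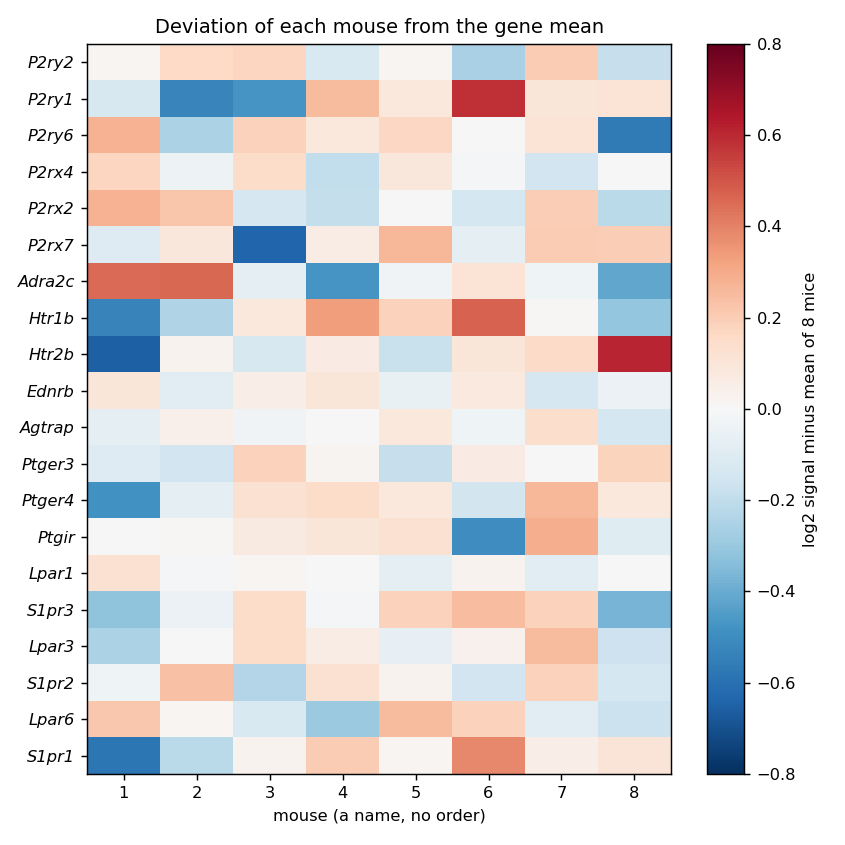
Deviation of the log2 signal of each mouse (columns) from the mean of 8 mice for the 20 detected members (rows, by family), red above and blue below the mean. Ednrb and Lpar1 are pale in every mouse, and Htr2b in mouse 1 (-0.65), P2rx7 in mouse 3 (-0.63) and P2ry1 in mouse 6 (0.58) are among the deepest colours.

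The 27 members that passed the signal filter were next set against marker scores of 8 cell types. These scores are no measure of cell shares, because cell number and RNA per cell cannot be told apart. A score per mouse was the mean log2 deviation of the marker genes of a cell type, and each of 12330 genes was fitted on each of 8 scores with limma, adjusted by Benjamini-Hochberg over all 98640 pairs of gene and score. Of the 216 pairs of the 27 members tested 0 passed, against 0.109% of all pairs outside a score's own markers, and 18 (8.33%) had an unadjusted p under 0.05, against 8.17% of those pairs. Adjusted within each score, 0 passed as well. Among all genes 0.576% passed for the neuronal score, which ranged from -0.99 (mouse 6) to 0.51 (mouse 1), 0.138% for the neutrophil, 0.073% for the osteoblast, 0.065% for the endothelial and 0.0162% for the macrophage score, the last of which ranged from -0.20 to 0.20. For the Schwann cell, melanocyte and mural cell scores 0 genes passed, so these fits say little about the receptors.

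The 4 member pairs with the smallest p, picked after the fits and none of them past the threshold, were these, with exact p-values not adjusted over the 216 pairs. Ptger4 had a slope of -1.60 ± 0.39 (SE) on the endothelial score (limma adjusted p = 0.301), with r = -0.87 (exact p = 0.00704) and rho = -0.76 (exact p = 0.0368). Without the 2 mice farthest from the median score its r was -0.375, so this relation rested on those mice, which include mouse 1, the lowest for Ptger4 (742.0) with the highest score (0.24). Lpar6 had a slope of 1.38 ± 0.36 (SE) on the same score (limma adjusted p = 0.331), with r = 0.875 (exact p = 0.00362), rho = 0.905 (exact p = 0.00456) and r = 0.94 without the 2 mice. S1pr3 had a slope of 0.42 ± 0.12 (SE) on the osteoblast score (limma adjusted p = 0.35), with r = 0.855 (exact p = 0.0101), rho = 0.71 (exact p = 0.0576) and r = 0.84 without the 2 mice. Read by the mean of all its probe sets, the S1pr3 slope was 0.001 (limma adjusted p = 1.0). That mean takes in a probe set below the threshold in every mouse (2.8 to 24.8). It therefore cannot show whether the relation rested on the probe set chosen. The other detected S1pr3 probe set (365.7 to 688.5) was not fitted by itself. P2rx6 had a slope of 0.87 ± 0.25 (SE) on the neuronal score (limma adjusted p = 0.372), with r = 0.77 (exact p = 0.0107), rho = 0.76 (exact p = 0.0368) and r = 0.48 without the 2 mice. Read by the mean of its probe sets, the P2rx6 slope was 0.415 (limma adjusted p = 0.604).

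Genes that make, clear or relay the ligands of these receptors were read from 9 lists, and 60 of 91 measured genes (65.9%) were detected, against 61.9% of all genes. Of the genes that handle nucleotides and adenosine 13 of 16 were detected, with adenosine kinase Adk (1618.3 ± 168.0), the nucleotidases Entpd5 (793.2 ± 133.8) and Entpd3 (643.4 ± 56.38), and the channel gene Panx2 (679.4 ± 229.8). Panx2 ranged from 288.9 in mouse 6 to 994.5 in mouse 4, and mouse 6 was also the lowest for the neuronal markers (summed signal 12955.2). On the neuronal score, a relation picked after the values were seen, Panx2 had a slope of 1.11 ± 0.185 (SE), which did not pass (limma adjusted p = 0.0994). Slc17a9, the transporter that loads ATP into vesicles, was below the threshold in every mouse. Of the endothelin and angiotensin genes 6 of 11 were detected, among them the peptidases Enpep (5138.3 ± 570.6), Ece1, which activates endothelin (1263.0 ± 144.0), and Mme (1066.0 ± 100.5), with the angiotensin precursor Agt at 285.6 ± 75.71. Of the endothelin ligands, Edn1 was detected (98.4 to 166.1) and Edn3 exceeded the threshold in 6 mice (62.2 to 108.4). Edn2, Ace and Avp were below the threshold in every mouse.

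All 8 prostanoid genes were detected, with the synthases Ptgds (16376.3 ± 2107.1), Ptges (1209.1 ± 236.4) and Ptgis (958.5 ± 223.1) and the inducible cyclooxygenase Ptgs2, which varied from 162.2 in mouse 1 to 509.5 in mouse 8 (306.4 ± 110.2). All 8 lysophospholipid genes were detected as well, among them the lipid phosphatases Plpp3 (6126.4 ± 280.9), Sgpp1 (3872.4 ± 571.9) and Plpp1 (3198.5 ± 202.5) and the sphingosine kinase Sphk1 (141.8 ± 44.17). Of the monoamine genes 4 of 13 were detected, the oxidases Maob (1344.9 ± 123.6) and Maoa (464.8 ± 32.61) and the vesicle transporters Slc18a2 (114.6 ± 24.59) and Slc18a1 (102.2 ± 27.77). The enzymes Th, Ddc, Dbh and Tph2, which take part in making the amines, and the transporters Slc6a2 and Slc6a3 were below the threshold in every mouse. Pnmt and Tph1, further enzymes of amine synthesis, exceeded it in 7 and 2 mice, at 51.2 to 152.8 and 28.3 to 73.3. The transporter Slc6a4 did so in 2 mice (22.6 to 84.4). Of the acetylcholine genes 1 of 5 was detected, the esterase Bche (285.8 ± 51.01), and of the opioid and somatostatin ligands 0 of 6.

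Downstream of the receptors, 11 of 13 G protein alpha subunits were detected, with Gnas, which activates adenylyl cyclase (8793.1 ± 1226.2), Gna13 (4316.3 ± 530.4), Gna14 (3781.3 ± 462.2) and Gnao1 (278.7 ± 49.07), and Gna15 was below the threshold in every mouse. Of the kinases, arrestins and regulators that end signalling 9 of 11 were detected, with Rgs2 (4806.1 ± 393.4), Rgs4 (2974.0 ± 194.3), Grk3 (1790.2 ± 116.0) and Arrb2 (243.7 ± 39.22).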

How the data were processed

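Total RNA of 8 samples, 1 per mouse, was amplified with the Ovation system and hybridised, per the labels' protocols. The authors deposited 1 intensity per probe set and array, which the submitters' processing notes credit to MAS5 (version not given in the sources used). The deposited intensities had a trimmed mean (without the lowest and highest 2%) of 500.0 on every array. The table held 0 other sample columns.

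The platform annotation named 1 gene for 34958 of 45101 probe sets, which were used, several for 932 and none for 9211. All 72 members matched RefSeq symbols. Genes were read by the probe set with the highest mean log2 signal (floor 1; _x_at only without another). Tests were limited to genes whose mean log2 signal exceeded the mean log2 threshold (59.7 as a signal). Of 120 background genes 4 were detected. Log2 signals of array pairs correlated at r = 0.945 to 0.960. A mouse lay apart where its gap to the next exceeded 0.526 of the range (Dixon).

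Named were, per family, the 2 detected members of highest signal and the most variable one, Ednrb, P2rx2, members called or ranging over 4-fold, and per pathway list the top 3 and the most variable gene. Other members and list genes are given by range or for completeness. Members and lists were chosen with earlier results of these data known. The alternatives were other scalings, thresholds, backgrounds, log offsets, correlations, adjustments and probe set rules, and leaving out each mouse. Scripts were tested on simulated data. Python 3.11.15, numpy 2.4.6, pandas 2.3.3, scipy 1.17.1, matplotlib 3.10.9, R 4.3.3 and limma 3.58.1 were used. The number of arrays limits the precision.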

Additional observations from a re-analysis of the deposited data

Results flagged for a closer look

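Each of the following had 1 mouse whose gap to the nearest other mouse was over 0.526 of the range of the 8, which chance alone gives for about 1 in 20 genes. Among the receptors, P2rx7 measured 331.5 in mouse 3 and 479.2 to 617.5 in the others, while its second probe set was highest in mouse 3 (308.0). In mouse 1, the G protein subunit gene Gna14 measured 4864.1 against 3392.2 to 3869.2 in the others, and the kinase gene Sphk1 241.8 against 104.8 to 153.5. Mouse 1 was low for the phosphatase gene Sgpp1, at 2647.9 against 3566.6 to 4402.5, and for the transporter gene Slc18a2, at 62.2 against 100.8 to 138.0. The synthase gene Ptgis measured 537.4 in mouse 8 and 849.3 to 1201.2 in the others. Of all detected genes 12.8% had such a mouse.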

How the results depend on the processing

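The number of detected members (20) was most affected by the threshold: 12 at the 99th percentile of the background, against 49.6% of all genes, 27 at the 90th (67% of all genes) and 24 with olfactory and vomeronasal receptors alone as background (64.9%). On at least 4 of 8 arrays 27 members were above it, against 68.5% of all genes. The mean of all probe sets gave 18 (53.5% of all genes), adding P2rx6 and losing Adra2c, Htr1b and P2rx7, leaving out a mouse gave 20 to 22, and both other scalings gave 20. The median SD of the detected members (0.216, log2) was 0.192 with log2 of the signal plus 32 and 0.186 (without mouse 1) to 0.244 (without mouse 5) when a mouse was left out. Probe set agreement passed for 1 member with no filter on low signals, against 2.49% of all genes. This was Htr5a, named after its values were seen, whose probe sets were below the threshold in every mouse. It passed for 0 members under the other alternatives, and leaving out mouse 1, mouse 2 or mouse 5 it passed for 0 genes at all, so those settings say nothing about the members. The marker fits called 0 member pairs under all 14 alternatives. Adjusted p-values over the alternatives ranged from 0.101 to 1.0 for Ptger4, 0.102 to 0.673 for Lpar6, 0.221 to 1.0 for S1pr3 and 0.226 to 0.837 for P2rx6, and from 0.145 to 0.485 for the S1pr3 probe sets. Mean log2 signals of 11 of the 20 members moved by more than their SD with the mean of all probe sets, and 0 with either scaling. No paired analysis was possible because the labels give a single group. Signals near the threshold limit what can be said of the 12 genes above it on some arrays.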

Other observations

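Several of these receptor genes lie side by side in the mouse genome (RefSeq gene order). Of 7 pairs of members that are neighbours, or have 1 coding gene between them, 6 shared their class, above the threshold on all arrays, on some or on none. P2rx4 and P2rx7 were both detected, as were P2ry2 and P2ry6. P2ry12, P2ry13 and P2ry14 were each above the threshold on some arrays, while Htr3a and Htr3b, and P2ry10 and P2ry10b, were above it on none. Lpar4, above the threshold in 2 mice, and P2ry10, above it in none, were the exception. Among all 72 members 20 were above the threshold on all arrays, 12 on some and 40 on none, so pairs often share a class without being neighbours. The pairs also overlap, as P2ry13 and P2ry10 each belong to more than 1 of them. They were not tested against other neighbouring genes.

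Examples of members within the span of another coding gene are Lpar6 within Rb1, Htr2b within Psmd1, P2ry12, P2ry13 and P2ry14 within Med12l, Sstr2 within Slc39a11 and Adora3 within Tmigd3. The part of RNA from the host gene in their signals was not tested.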
